A study of Mus musculus with 21 samples.

Results

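The Dlk1-Dio3 domain is an imprinted stretch of mouse chromosome 12, in which each gene is read mainly from the chromosome of 1 parent. The 6 genes described here are Dlk1, Meg3, Rtl1, Rian, Mirg and Dio3, which were chosen by name and not by their values. Of these, 5 had a row among the 31053 gene IDs of the count tables, 4 had at least 1 count, and 3 (Meg3, Mirg and Dio3) had enough counts to be among the 10643 genes tested. Rian was not analysed here.

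Dlk1, Rtl1 and Dio3 code for proteins and are read from the paternal chromosome, whereas Meg3, Rian and Mirg are long non-coding RNAs read from the maternal chromosome. A methylated control region between Dlk1 and Meg3 sets this pattern: unmethylated on the maternal chromosome, it allows the non-coding RNAs to be made there and keeps the coding genes low. In mouse embryonic stem cells and reprogrammed cells the domain is known for lines that lose the maternal non-coding RNAs, a loss that has been tied to poor development of the cells in embryos.

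The 21 libraries came from 1 line, E14Tg2a, male embryonic stem cells of a 129 strain with a destabilised green fluorescent protein (GFPd2) knocked into 1 allele of Rex1. The question of the study was how to keep such cells pluripotent, and they were sampled at zero passage and after 1 and 2 months in several media. All cells had first been held in NDiff227 with the GSK3 inhibitor CHIR99021 (CH) and the MEK inhibitor PD0325901, and then underwent rounds in which CH, PD and the cytokine LIF were given and removed. The 7 groups of 3 libraries were 2i+LIF PO, then 2i+LIF, CH+LIF and LIF at LP and the same media at HP. PO is taken here as zero passage because it occurs in the starting medium only. LP and HP are used as names, since the labels do not say which stands for the longer culture. The counts carry no information on the parental chromosome, and with 1 line nothing here bears on other lines. Nothing in the labels says that the 3 libraries of a group came from separate cultures, so the tests measure only the spread between these libraries, which may be technical.

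Gene counts per library ran from 1132126 to 3783043, with a median of 1763531. All 8 embryonic stem cell markers examined had counts in every library, and their summed level ran from 1271 to 3232 CPM (counts-per-million). Replicate 1 of 2i+LIF LP and replicate 1 of 2i+LIF PO stood apart, with mean correlations of 0.787 and 0.83 to the other libraries of their groups against 0.857 to 0.944 for the other 19 libraries. Gm42418, which overlaps ribosomal RNA sequence, took 31.65% of the gene counts in the first of them, and mitochondrial genes took 39.09% in the second. The PO libraries carry another sequencing run in their deposited names than the other 18, so run and PO cannot be told apart. The ERK target Dusp6 went against some labels: it stood at 0.701, 34.4 and 26.3 CPM in the 3 libraries labelled 2i+LIF LP, although 2i usually stands for CH with the MEK inhibitor, and at 0, 1.23 and 0 CPM in those labelled LIF HP, which names no such inhibitor. Spry4, another ERK target, had no count in LIF HP. The Wnt target Sp5, which CH (a GSK3 inhibitor) usually raises, went against others: it was at 0.969, 0.605 and 1.52 CPM in CH+LIF LP, near the 0 to 1.1 CPM of LIF LP, against 17.5 to 46.7 CPM in CH+LIF HP and 19.6 to 30.2 CPM in LIF HP, which names no CH. Axin2, also a Wnt target, was at 0, 4.84 and 10.6 CPM in CH+LIF LP and at 12.4, 8.62 and 6.18 CPM in LIF HP. The label doubt thus touches 2i+LIF LP, LIF HP and CH+LIF LP, and CH+LIF LP was not left out as a group. Where leaving out the libraries that stand apart, or those labelled LIF HP and 2i+LIF LP, ends or makes a call of a domain gene, that value is given.

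The 6 genes lie within 828 kb. On GRCm38 with the GENCODE M21 annotation, Dlk1 is at chr12:109452823-109463336, Meg3 at chr12:109541001-109571726, Mirg at chr12:109729764-109749460 and Dio3 at chr12:110279068-110281097, all on the plus strand. Rtl1 is on the minus strand at chr12:109589193-109600330. Rian, on the plus strand at chr12:109603940-109661716, spans 57.8 kb between Meg3 and Mirg. The annotation holds 118 genes in this interval, of which 67 are miRNA genes and 23 are snoRNA genes. None of these small RNA genes had a row in the tables, including the 15 miRNA genes within the span of Mirg and the 2 within that of Meg3, so the counts describe only the long transcripts.

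**Figure D1:**
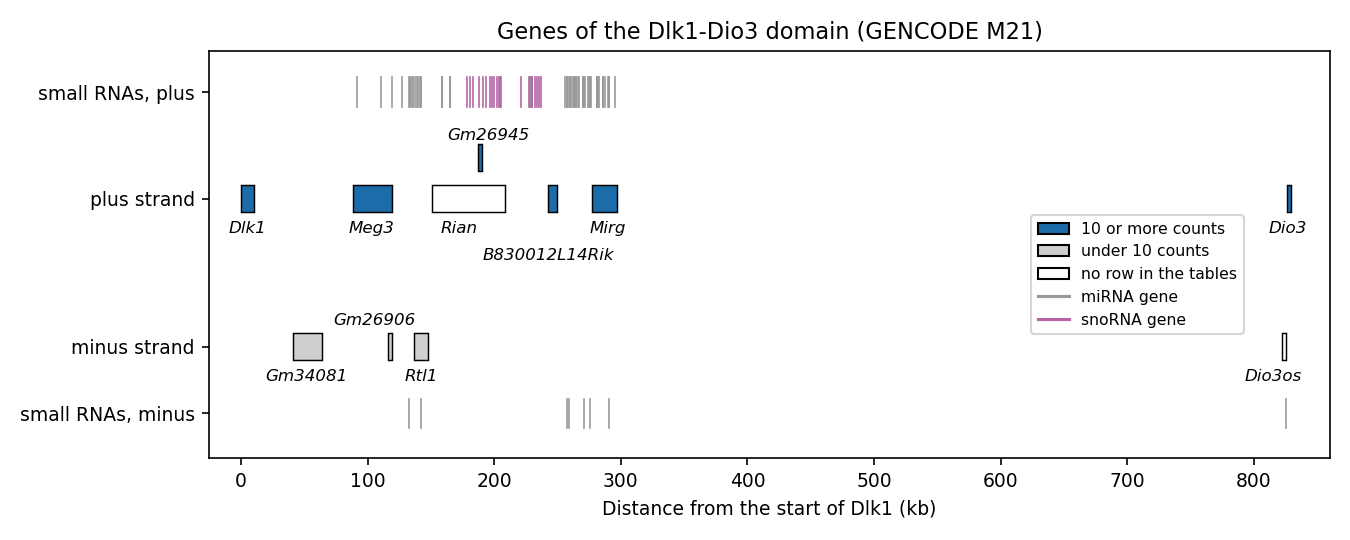
Genes of the domain by strand, with the distance from the start of Dlk1 in kb on the horizontal axis and miRNA and snoRNA genes as ticks. Blue boxes had 10 or more counts over the 21 libraries, grey boxes fewer, and white boxes no row in the tables. The non-coding RNAs with 10 or more counts lie in the stretch from Meg3 to Mirg, and Dio3 stands 826.2 kb from the start of Dlk1.

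The start sites of Meg3 and Dio3 are shown because, averaged over the cultured groups, Dio3 was called lower against PO and Meg3 was not called. A difference between the 2 genes was not tested. Sequences are those of RefSeq on GRCm38.p6, plus strand. For Meg3 the 250 bases before its first RefSeq start, chr12:109540746-109540995, are given. For Dio3 only the 30 bases from 50 to 21 before its RefSeq start, chr12:110279180-110279209, are given. Capitals mark matches, on either strand, to TATAAA (the TATA box), CCAAT, TGACGTCA (the cAMP response element) and TGCCGC (a hexamer bound by ZFP57 when methylated).
Meg3: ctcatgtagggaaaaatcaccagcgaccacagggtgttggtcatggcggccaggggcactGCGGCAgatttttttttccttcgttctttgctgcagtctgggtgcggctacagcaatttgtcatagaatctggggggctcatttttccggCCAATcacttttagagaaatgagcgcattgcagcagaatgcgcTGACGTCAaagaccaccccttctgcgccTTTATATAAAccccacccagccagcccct
Dio3: cgCCAATtcaagctttgacTATAAAttgag
The Meg3 stretch held TATAAA on both strands in overlapping positions, with the plus-strand match beginning 25 bases before the start, TGACGTCA 57 bases before it, CCAAT 100 bases before it and TGCCGC on the minus strand. In the Dio3 stretch TATAAA began 31 bases and CCAAT 48 bases before the start. Over the 250 bases before the start of all 32851 promoters in the table, 12.4% held TATAAA, 33.8% CCAAT, 1.55% TGACGTCA and 8.68% TGCCGC. The same window held 21 CpG dinucleotides for Dio3, 10 for Meg3, 10 for Mirg, 8 for Dlk1 and 0 for both Rian and the second Meg3 start, against a median of 6. These matches are letters in a window and were not tested for binding.

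Dlk1, a membrane ligand-like protein that acts on Notch signalling and on growth, was close to absent. It had 12 counts in 8 of the 21 libraries, or 0.3 CPM of all gene counts (95% interval of counting error, 0.155 to 0.524), and no library held more than 3. Its 3 PO libraries held none, which allows up to 0.297 CPM over the group. The group with most counts was LIF LP, with 1, 0 and 3. Dlk1 did not reach the count filter. Run without the filter, edgeR's quasi-likelihood test called it in 0 of 22 tests, with a lowest unadjusted p of 0.0625 and a lowest adjusted p of 0.29. Rtl1, a retrotransposon-derived gene needed in the placenta, had no count in any library, which allows up to 0.075 CPM over all libraries and 0.793 to 2.65 CPM in a single one. Differences in Dlk1 and Rtl1 between groups were not detectable at this depth.

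Meg3 and Mirg, the maternal non-coding RNAs with counts, were present in all 21 libraries and their 3 lowest values among the cultured libraries were in 2i+LIF HP and LIF HP. Among the cultured groups, Mirg differed and Meg3 did not pass the joint edgeR test (adjusted p = 0.251). Without the filter on low counts Meg3 passed it (adjusted p = 0.00234). In a joint edgeR quasi-likelihood test for any difference among the 6 cultured groups, 2 of the 3 tested genes of the domain passed, Mirg (adjusted p = 0.0275) and Dio3 (adjusted p = 0.034), against 13.1% of all genes tested. With PO included, the same 2 genes passed (Mirg, adjusted p = 0.0258, and Dio3, adjusted p = 0.000119), against 22.6% of all genes. Fewer cells with a transcript and less of it per cell cannot be told apart in these bulk libraries.

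Meg3, the non-coding RNA nearest to the control region, was at 517, 374 and 136 CPM in the PO libraries. At LP it was at 494, 431 and 840 CPM in 2i+LIF, at 1120, 645 and 418 CPM in CH+LIF and at 1014, 878 and 585 CPM in LIF. At HP it was at 756, 188 and 260 CPM in 2i+LIF, at 729, 911 and 1647 CPM in CH+LIF and at 536, 37.6 and 379 CPM in LIF. The lowest value by far was replicate 2 of LIF HP, with 61 counts, 14.3-fold below replicate 1 of its own group. Of the 21 libraries it had the lowest share of entries outside genes, 8.46% (median 17.16%), and the highest share that was not unique, 35.45% (median 26.27%). Its mean correlation with the other LIF HP libraries was 0.928, 13389 genes were detected in it and 3.48% of its counts were mitochondrial. The part of these shares in its Meg3 value was not tested.

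Group means of Meg3 fell in the order CH+LIF HP (1096 ± 486 CPM, SD, n = 3), LIF LP (826 ± 219), CH+LIF LP (728 ± 358), 2i+LIF LP (588 ± 220), 2i+LIF HP (401 ± 310), PO (343 ± 192) and LIF HP (318 ± 255). Each group overlapped the next in this order. The only groups whose libraries lay wholly above those of LIF HP were CH+LIF HP and LIF LP. LIF HP against CH+LIF HP gave a log2 fold change of -1.79 (SE 0.65, adjusted p = 0.179), and against LIF LP it gave -1.38 (SE 0.64, adjusted p = 0.168). Against 2i+LIF HP, CH+LIF HP gave 1.45 (SE 0.64, adjusted p = 0.356). Meg3 passed in none of the 22 edgeR tests. Without the filter on low counts it passed in both joint tests (adjusted p = 0.00234 for the cultured groups and 0.000176 for all 7) and in 5 of the 15 contrasts. Without the 2 libraries that stand apart it passed in CH+LIF HP against PO (2.09, adjusted p = 0.0428, in place of 1.68 and 0.116) and over all 7 groups (0.0485). In a fit of only the groups compared it passed in LIF HP against CH+LIF HP (adjusted p = 0.0257) and against LIF LP (adjusted p = 0.0434).

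Pooled over the 7 groups, the spread of Meg3 between libraries of 1 group was wide. Its SD of log2 CPM within groups was 1.05, against a median of 0.59 over all genes tested. Only 8 of the 467 genes with a mean within 1 log2 CPM of that of Meg3 (1.71%) varied more. LIF HP weighs heavily in this pooled value: its highest library was 14.3-fold above its lowest, against 1.73 to 4.03-fold in the other groups. The spread without LIF HP replicate 2 is not given here. For Mirg the within-group SD was 0.82, and 9.4% of the 3989 genes near its level varied more. Dio3, at 0.85, was within the bulk of genes of its level, of which 38.9% varied more.

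Mirg, a host transcript of a large miRNA cluster at the far end of the non-coding stretch, was at 41.2, 19.3 and 16.2 CPM in the PO libraries. At LP it was at 11.2, 16.4 and 20.1 CPM in 2i+LIF, at 54.7, 47.8 and 24.3 CPM in CH+LIF and at 50.7, 40.5 and 41.8 CPM in LIF. At HP it was at 24.2, 6.54 and 5.75 CPM in 2i+LIF, at 51.3, 63.9 and 54.8 CPM in CH+LIF and at 36.6, 3.7 and 24.7 CPM in LIF. Every 2i+LIF library lay below every CH+LIF and LIF library at LP and below every CH+LIF library at HP. At HP, 2i+LIF and LIF overlapped. The share of all genes with such a separation is not given here. The lowest library was again replicate 2 of LIF HP, with 6 counts.

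Group means of Mirg fell in the order CH+LIF HP (56.7 ± 6.53 CPM, SD, n = 3), LIF LP (44.3 ± 5.53), CH+LIF LP (42.3 ± 16), PO (25.6 ± 13.6), LIF HP (21.7 ± 16.7), 2i+LIF LP (15.9 ± 4.47) and 2i+LIF HP (12.2 ± 10.4). CH+LIF HP lay above LIF LP without overlap, by 51.3 against 50.7 CPM at the nearest libraries, and the other neighbours overlapped. At HP, Mirg was higher in CH+LIF than in 2i+LIF by 2.16 on the log2 scale (SE 0.57, 4.46-fold, edgeR adjusted p = 0.0426). In that contrast 1.10% of all genes were called higher. At LP, the log2 fold change against 2i+LIF was 1.41 in CH+LIF (SE 0.55, adjusted p = 0.479) and 1.47 in LIF (SE 0.55, adjusted p = 0.275), neither past the threshold.

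The size of this Mirg difference held better than its call. Without 2i+LIF HP replicate 1, the highest of its group, the log2 fold change was 3.18 (adjusted p = 0.0092). Without replicate 2 of 2i+LIF HP it was 1.84 (adjusted p = 0.221), and without replicate 3 it was 1.87 (0.223). Leaving out replicates 1, 2 and 3 of CH+LIF HP gave 2.23, 2.06 and 2.18 (adjusted p = 0.0831, 0.159 and 0.104). The adjusted p also exceeded 0.05 when CH+LIF LP replicate 2 (0.0537), LIF LP replicate 1 (0.0524), 2 (0.0531) or 3 (0.0527) or LIF HP replicate 3 (0.0565) was left out, none of them in the contrast. Without all libraries labelled LIF HP and 2i+LIF LP, the log2 fold change was 2.13 and the adjusted p 0.0127. The joint call of Mirg over the cultured groups was lost without 2i+LIF HP replicate 2 (adjusted p = 0.0666), 2i+LIF HP replicate 3 (0.0626) or CH+LIF HP replicate 2 (0.0603). Over all 7 groups the same 3 omissions gave 0.0542, 0.0509 and 0.0581. Against PO, Mirg in CH+LIF HP gave 1.17 (SE 0.53, adjusted p = 0.193), and 1.66 without the 2 libraries that stand apart (0.0389). In 2i+LIF HP it gave -0.99 (SE 0.56, adjusted p = 0.268), and -2.01 without 2i+LIF HP replicate 1 (0.0436). LIF HP against CH+LIF HP passed for Mirg in a fit of only the groups compared (-1.40, adjusted p = 0.0355).

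With all libraries, the HP difference in Mirg between CH+LIF and 2i+LIF was the only call of a domain gene in the 9 contrasts within the cultured groups. It was 1 of 27 pairs of gene and contrast (2.38% of all pairs were called). Of the 27, 11 had an unadjusted p under 0.05. The share of all pairs at that unadjusted p is not given, so the 11 cannot be read as an excess. For HP against LP averaged over the media, edgeR called 0 of the 3 genes, DESeq2 called 0 and 0 had an unadjusted p under 0.05, against 13.1% of all genes called. The change from LP to HP differed between media for 0 of 9 pairs in edgeR and in DESeq2, with 0.197% of all pairs called and 1 of the 9 at an unadjusted p under 0.05.

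2 further transcripts of unknown role between Meg3 and Mirg had at least 10 counts. B830012L14Rik, at chr12:109695586-109702587 on the plus strand, had 384 counts. It was at 7.91, 2.09 and 1.5 CPM in PO. Its libraries were at 0.701, 11.6 and 20.7 CPM in 2i+LIF LP, at 24.2, 11.5 and 3.04 CPM in CH+LIF LP and at 15.4, 23.2 and 16.8 CPM in LIF LP. At HP they were at 11.6, 0.545 and 1.92 CPM in 2i+LIF, at 11, 12.4 and 22.1 CPM in CH+LIF and at 9.28, 0 and 1.03 CPM in LIF. In both 2i+LIF HP and LIF HP replicate 1 was the highest library, as for Meg3. Its within-group SD of log2 CPM, 1.31, was exceeded by 0.402% of the 3729 genes near its level. B830012L14Rik passed in no test with all libraries and the filter, but several of its contrasts passed in alternatives. HP against LP gave -1.07 (SE 0.54, adjusted p = 0.197), and passed without LIF HP replicate 1 (-2.10, adjusted p = 0.0365), without 2i+LIF HP replicate 1 (-1.79, 0.0472), without the 2 libraries that stand apart (-1.23, 0.0438) and without the filter on low counts (0.0344). LIF HP against LIF LP gave -2.26 (SE 0.98, adjusted p = 0.137), -5.35 without LIF HP replicate 1 (0.0324) and -2.25 without the 2 libraries that stand apart (0.0379). It also passed in a fit of only the groups compared (0.0154) and without the filter (0.0122). Against PO, LIF LP gave 2.37 (SE 0.94, adjusted p = 0.1), 3.33 without PO replicate 1 (0.0393), 2.41 once the 2i+LIF LP library that stands apart was omitted (0.0422) and 3.32 after omission of both (0.00893). Omitting the groups labelled LIF HP and 2i+LIF LP gave 2.39 (0.0376). Omission of both libraries that stand apart also made calls of B830012L14Rik against PO in 2i+LIF LP (3.11, adjusted p = 0.0328 in place of 0.315), CH+LIF LP (2.83, 0.033 in place of 0.221) and CH+LIF HP (3.01, 0.0261 in place of 0.193). It did so over all cultured groups as well (2.47, adjusted p = 0.0265 in place of 0.215). The joint test over all 7 groups passed without both (adjusted p = 0.0164) and without the filter (0.000797), and that over the cultured groups passed without the filter (0.0202). Gm26945, at chr12:109640341-109642351, lies on the same strand within the span of Rian and shares 0 exon bases with it. It had 95 counts in 16 libraries, between 0 and 7.71 CPM, and passed in no test with all libraries. PO replicate 1 held 9 of the 10 PO counts. Without it, the log2 fold change against PO was 4.53 in LIF LP (adjusted p = 0.0295) in place of 1.65, 4.55 in 2i+LIF LP (0.0348) in place of 1.65, and 4.54 in CH+LIF HP (0.0496) in place of 1.67, each against the 1 remaining PO count. The joint test over all 7 groups then passed for Gm26945 (adjusted p = 0.0448). Without 2i+LIF LP replicate 1 as well, it gave 0.0411, and Gm26945 passed against PO in LIF LP (4.54, adjusted p = 0.0155), in CH+LIF HP (4.54, 0.0249) and over all cultured groups (3.41, 0.0494 in place of 0.692).

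**Figure D2:**
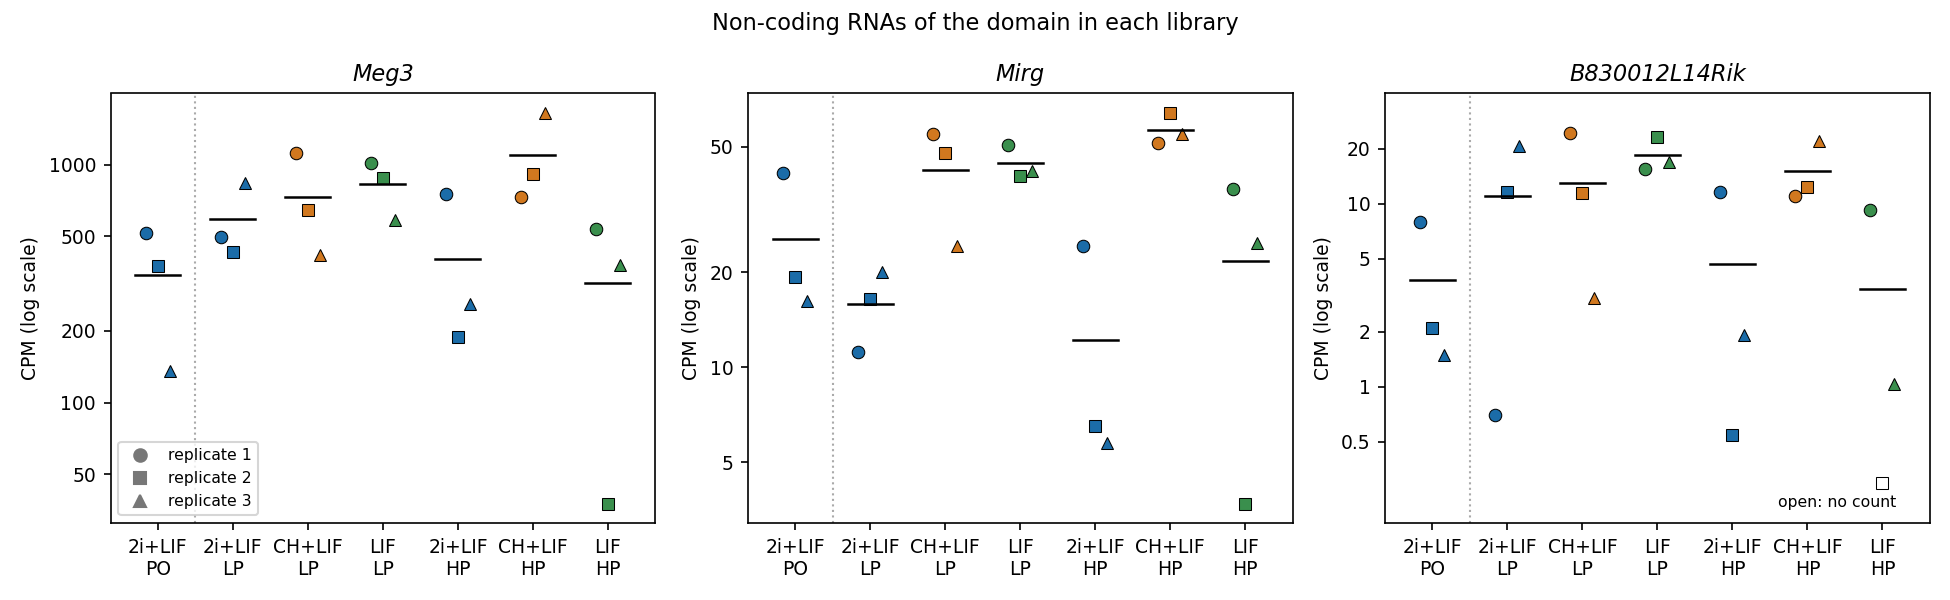
Meg3, Mirg and B830012L14Rik in each library (CPM, log axes), by group, with symbols for replicates, colours for media and bars for group means. In LIF HP, replicate 2 was lowest for all 3 genes, at 37.6 and 3.7 CPM and no count, and in 2i+LIF HP replicate 1 was highest for all 3.

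The 3 non-coding RNAs varied together from library to library. Over the 21 libraries, log2 CPM of Meg3 and Mirg correlated with r = 0.828 and rho = 0.83 (permutation test, adjusted p = 1.6e-05 and 2.67e-05 over 8 relations). The unadjusted p of both, 1e-05, is the smallest these 99999 permutations can give. Without the libraries farthest from the Meg3 median, LIF HP replicate 2 and PO replicate 3, r was 0.806. Within the 18 libraries of the other sequencing run r was 0.852, and there the deviations from group means gave r = 0.924. The 3 libraries of the PO run are too few for a value of their own. Meg3 and B830012L14Rik gave r = 0.837 and rho = 0.888 (permutation test, adjusted p = 1.6e-05 and 2.67e-05), and r = 0.832 within the 18. Mirg and B830012L14Rik gave r = 0.804 and rho = 0.714 (permutation test, adjusted p = 1.6e-05 and 0.00048), and r = 0.812 within the 18. Points share library depth and scaling, and the pairs were chosen after their values had been seen. The permutations, here and for Dio3 below, shuffled libraries freely over the groups. They treat libraries of 1 group as independent, so these p may be too small and only describe the pattern.

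The library that was highest for Meg3 was also highest for Mirg in 6 of 7 groups, and the lowest was the same in 4 of 7. Among 10642 other genes, Meg3 was the one most like Mirg over the 21 libraries, and B830012L14Rik ranked 4. Within the 18 cultured libraries the ranks for Mirg were the same, 1 and 4. For Meg3, B830012L14Rik ranked 4 and Mirg 5 over the 21 libraries, and 20 and 10 within the 18. Ahead of them stood Slfn9 (r = 0.866), Stag3 (r = 0.861) and Eea1 (r = 0.846), genes on chromosomes 11, 5 and 10. After Meg3, the genes most like Mirg were Sned1 (r = 0.809) and Ptprk (r = 0.805), on chromosomes 1 and 10. Gm26945 ranked 130 for Meg3 (r = 0.659).

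**Figure D3:**
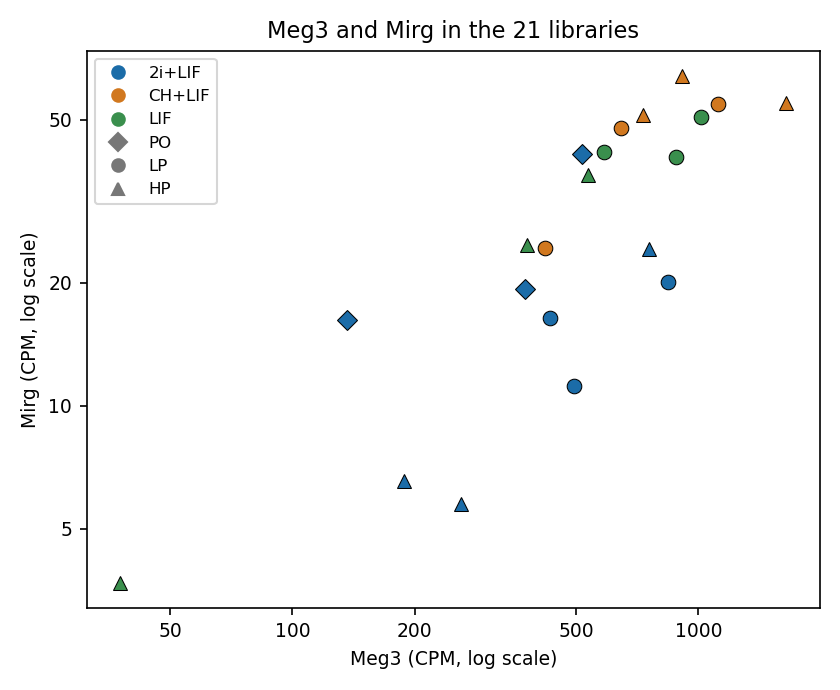
Meg3 and Mirg in the 21 libraries (CPM, both axes logarithmic), with colours for media and symbols for PO, LP and HP. The points follow one another over the range from 37.6 to 1647 CPM of Meg3 (r = 0.828), and the cultured 2i+LIF libraries lie toward lower Mirg.

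Dio3, the deiodinase that inactivates thyroid hormone, was the gene of the domain with the clearest change. It was at 24.3, 36.9 and 23.4 CPM in the PO libraries, above every cultured library. At LP it was at 11.9, 3.01 and 0.559 CPM in 2i+LIF, at 0, 1.21 and 0.759 CPM in CH+LIF and at 0, 0 and 0.962 CPM in LIF. At HP it was at 14.4, 2.18 and 2.88 CPM in 2i+LIF, at 0.649, 0.954 and 1.52 CPM in CH+LIF and at 4.64, 1.23 and 2.06 CPM in LIF. The highest cultured values were the first replicates of 2i+LIF HP and 2i+LIF LP. The latter is the 2i+LIF LP library in which Dusp6 was low.

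Averaged over the cultured groups, Dio3 fell by 4.00 on the log2 scale against PO (SE 0.50, 16-fold, edgeR adjusted p = 1.29e-05, lower in 18 of 18 libraries). Of the 3 genes it alone was called (1 of 3), where 17.9% of all genes were called and 11.0% were called lower. The median of all genes in this contrast was -0.087. Among the 27 alternatives run for this value, the log2 fold change stayed between -4.45 and -3.75 and was called in each. The PO libraries also differ by sequencing run, and whether the run bears on Dio3 was not tested.

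Against PO, Dio3 was lower in all 6 cultured groups and was called lower in 4. Pooled counts were 281 in PO, 3 in CH+LIF LP and 2 in LIF LP, and the levels in PO were 43.9 (95% interval of counting error, 14.9 to 214) and 65.5 (18 to 544) times as high (edgeR adjusted p = 0.00193 and 0.000641). In CH+LIF HP it fell by 4.71 on the log2 scale (SE 0.95, adjusted p = 0.00511). In LIF HP it fell by 3.33 (SE 0.85, adjusted p = 0.0127), a call lost without LIF HP replicate 2 (adjusted p = 0.0815) or 3 (0.0589). There the median of all genes was itself at -0.101. In 2i+LIF the log2 fold change was -2.50 at LP (SE 0.79, adjusted p = 0.0602) and -2.04 at HP (SE 0.76, adjusted p = 0.084), neither past the threshold.

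The 2 values for 2i+LIF sat close to the threshold. DESeq2 called Dio3 lower in 2i+LIF LP (-2.43, adjusted p = 0.0347), and without the filter on low counts edgeR called both (adjusted p = 0.0114 at LP and 0.0342 at HP). Same-numbered libraries of 2i+LIF LP and PO deviated together, but no label pairs them, and replicate 1 of both stands apart. With the replicate block, Dio3 in 2i+LIF LP fell by 2.83 (edgeR adjusted p = 0.0325). That block fits 1 effect per replicate number over all 21 libraries, so it is not a paired test of these 2 groups. Without both libraries that stand apart the log2 fold change was -3.96 in 2i+LIF LP (adjusted p = 0.00646) and -2.12 in 2i+LIF HP (0.0309). Without 2i+LIF LP replicate 1 the former was -3.86 (adjusted p = 0.0117), without PO replicate 1 it was -2.57 (adjusted p = 0.0475), and without 2i+LIF HP replicate 1 the adjusted p was 0.0472. For 2i+LIF HP it was -3.48 without its replicate 1 (adjusted p = 0.0181) and -2.01 without 2i+LIF LP replicate 1 (adjusted p = 0.0381), and -2.03 when the groups labelled LIF HP and 2i+LIF LP were omitted (adjusted p = 0.0414). In all, the 3 genes were called in 4 of 18 pairs of gene and contrast against PO, each of them Dio3 lower. Of all pairs 9.00% were called and 4.14% called lower. Of the 18, 8 had an unadjusted p under 0.05, for which the share of all pairs is not given. Without 2i+LIF HP replicate 1 the number of calls was 7.

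**Figure D4:**
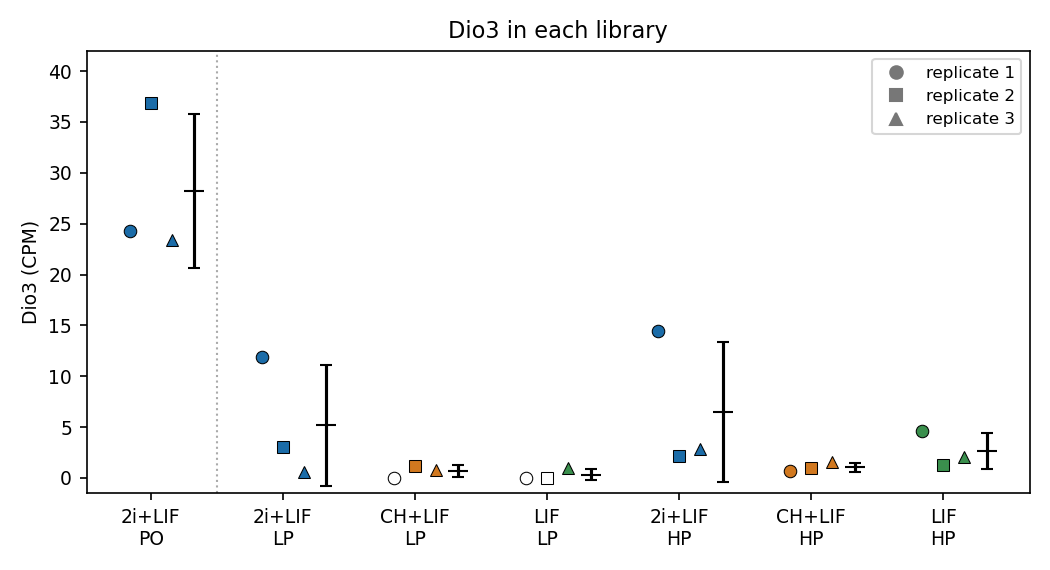
Dio3 in each library (CPM, linear axis) by group, with open symbols for libraries without a count and the mean ± SD at the right of each group. The 3 PO libraries lie between 23.4 and 36.9 CPM, above the highest cultured library at 14.4 CPM.

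Among the cultured groups, Dio3 was ordered 2i+LIF HP (6.49 ± 6.87 CPM, SD, n = 3), 2i+LIF LP (5.16 ± 5.98), LIF HP (2.64 ± 1.78), CH+LIF HP (1.04 ± 0.444), CH+LIF LP (0.657 ± 0.612) and LIF LP (0.321 ± 0.555), with overlap between each neighbouring pair. PO, at 28.2 ± 7.53 CPM, lay above 2i+LIF HP without overlap. Single contrasts within the cultured groups did not pass: LIF LP against 2i+LIF LP gave -3.55 (SE 1.15, adjusted p = 0.183, and 0.034 without the filter), and CH+LIF HP against 2i+LIF HP gave -2.66 (SE 0.98, adjusted p = 0.212). The joint call among cultured groups was lost with the replicate block (adjusted p = 0.0575) and when any of 7 libraries was left out. These were CH+LIF LP replicate 1 (0.0533), LIF LP replicates 1 (0.0695) and 2 (0.0684), 2i+LIF HP replicate 1 (0.0931), CH+LIF HP replicates 1 (0.0526) and 2 (0.054), and LIF HP replicate 3 (0.0534). In the fit of the 18 cultured libraries alone, Dio3 was below the count filter and was not tested.

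The relation of Dio3 to Meg3 differed in sign between measures. Since PO stands apart for Dio3, it is given within the 18 cultured libraries: r = -0.183 and rho = -0.516 (permutation test, adjusted p = 0.454 and 0.0296 over 8 relations). Without LIF HP replicate 2 and 2i+LIF HP replicate 2, r was -0.393. The deviations from group means gave r = 0.271, of the opposite sign. The genes most like Dio3 over the 21 libraries were Tfcp2l1, a transcription factor of naive pluripotency (r = 0.876), Hap1 (r = 0.873) and Pip5k1c (r = 0.872). Within the 18 cultured libraries their r was 0.8, 0.687 and 0.77, and they ranked 42, 297 and 93.

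**Figure D5:**
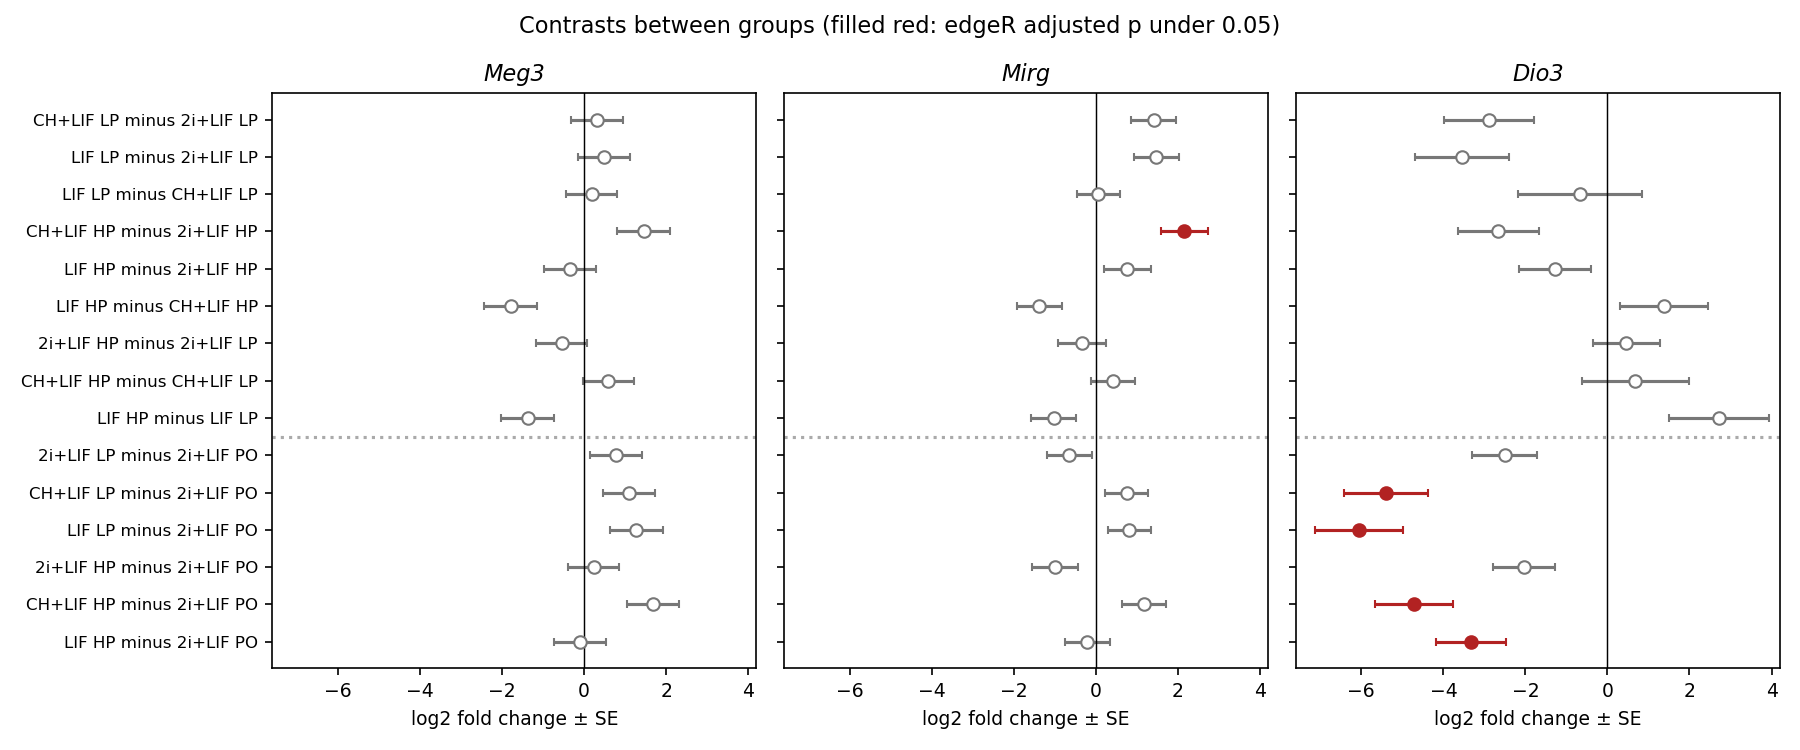
Log2 fold changes ± SE of Meg3, Mirg and Dio3 in the 9 contrasts within the cultured groups (above the dotted line) and the 6 against PO (beneath it), with filled red points for edgeR adjusted p under 0.05. Meg3 has no filled point, Mirg 1 (CH+LIF HP against 2i+LIF HP, 2.16) and Dio3 4, all against PO.

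Genes that flank the domain or control its imprint were counted from fixed lists, beside the values for all genes tested. Of 11 tested genes flanking the domain, edgeR called 0 among the cultured groups (1 at an unadjusted p under 0.05, 1 with DESeq2), 0 against PO (2 and 0) and 0 between HP and LP (0 and 0). Their median log2 fold change was -0.01 for cultured groups against PO and -0.07 for HP against LP, where all genes gave -0.09 and 0. Of 18 imprint control factors, 7 differed among the cultured groups, 1 rose and 2 fell against PO, and 1 rose and 5 fell from LP to HP. Their median was -0.34 in both. The corresponding counts over all 10643 genes were 1390, then 739 and 1171, then 710 and 689. At an unadjusted edgeR p under 0.05 and with DESeq2, 3013 and 2454 of all genes differed among the cultured groups. Against PO these counts were 3388 and 2234, and between HP and LP 2962 and 1861.

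Zfp57, the zinc finger protein that binds methylated imprint control regions, fell by 1.68 on the log2 scale in the cultured groups against PO (SE 0.30, adjusted p = 0.000549), from 122 ± 70 CPM to group means between 23.2 and 70.9 CPM. Its partner Trim28 did not pass (-0.52, SE 0.32, adjusted p = 0.269). Dnmt3a, a de novo DNA methyltransferase, rose by 1.19 (SE 0.35, adjusted p = 0.0185). Dnmt3l, a cofactor of that enzyme, and Dppa3, which protects imprints in the early embryo, differed among the cultured groups (adjusted p = 2.86e-06 and 2.89e-06). At HP, Dnmt3l was at 6.96 ± 2.86 CPM in 2i+LIF, at 1.06 ± 1.35 CPM in LIF and at 89.1 ± 16.9 CPM in CH+LIF. The 3 cultured libraries lowest in Meg3 belong to the first 2 of these groups. Dppa3 was at 84.4 ± 53.8 CPM in 2i+LIF HP and at most 2.54 CPM in the other cultured groups. Suz12, a subunit of Polycomb complex PRC2, differed as well (adjusted p = 0.00221), from 122 ± 22.5 CPM (LIF HP) to 515 ± 130 CPM (2i+LIF HP). Whether any of these bears on the domain was not tested.

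Dlk1 acts on Notch signalling and Dio3 on thyroid hormone, and both pathways were examined. Of 8 tested Notch pathway genes, 2 differed among the cultured groups, where 13.1% of all genes did. Against PO 0 rose and 1 fell, and from LP to HP 0 rose and 1 fell, with medians of -0.63 and -0.6. Over all 10643 genes, 739 rose and 1171 fell against PO (median -0.09), and 710 rose and 689 fell from LP to HP (median 0). Rbpj, the DNA-binding effector of Notch, was at 215 ± 17 CPM in LIF LP and, at HP, at 35.1 ± 1.86 CPM (joint adjusted p = 0.000879). The ligand Jag1 differed too (joint adjusted p = 0.017), from 24.4 ± 3.82 CPM (2i+LIF HP) to 2.3 ± 2.17 CPM (LIF HP). Hes1, a Notch target, fell by 1.1 against PO (SE 0.27, adjusted p = 0.00658). Of 7 tested genes that handle thyroid hormone, 0 differed among the cultured groups. At an unadjusted edgeR p under 0.05 there were 3, and 2 with DESeq2, against 3013 and 2454 of all 10643 genes. Against PO 0 rose and 3 fell, and from LP to HP 0 rose and 2 fell, with medians of -0.44 and -0.74. Klf9, a transcription factor induced by thyroid hormone, fell by 1.18 (SE 0.26, adjusted p = 0.0033), the corepressor Ncor1 by 1.47 (SE 0.34, adjusted p = 0.00403) and the coactivator Ncoa1 by 1.31 (SE 0.35, adjusted p = 0.0121) in the cultured groups against PO. The PO libraries of Ncor1 were far apart, at 1307 ± 1396 CPM.

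Markers of other cell types were low but not constant. Summed levels ran from 0 to 22.3 CPM for primitive endoderm, 5.33 to 47.4 for mesoderm, 3.83 to 36.9 for feeder fibroblasts, 34.5 to 253 for the neural list and 31.2 to 184 for trophectoderm, of which Elf5 had no count in any library. Neural markers were at 36.9 to 72.4 CPM in PO, 57.2 to 59.7 in CH+LIF HP and 189 to 208 in LIF LP, the last 2 being groups with high Meg3 and Mirg. Trophectoderm markers were at 111 to 184 CPM in PO, 119 to 135 in 2i+LIF HP and 132 to 175 in LIF HP, against 31.2 to 87.3 in the other groups. Mesoderm markers were at 21.1 to 47.4 CPM in 2i+LIF HP and 8.59 to 17.5 in CH+LIF HP, so both these lists lay apart in the contrast in which Mirg was called. In PO, mesoderm markers were at 21.6 to 23.9 CPM. They were at 5.33 to 17.5 in CH+LIF LP, LIF LP, CH+LIF HP and LIF HP, the groups in which Dio3 was called lower against PO. In 2i+LIF LP, where Dio3 was lower but not called, they were at 12.9 to 30.2. Embryonic stem cell markers were at 2675 to 3232 CPM in PO and 1271 to 3074 in the cultured groups. The part of these levels in the results for Meg3, Mirg and Dio3 was not tested.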

How the data were processed

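The authors deposited 1 table of whole-number counts per library, not normalized, for 31053 Ensembl gene IDs and 5 closing entries (reads outside genes, ambiguous or not unique), which stayed out of all totals; gene counts were 47.37 to 61.98% of entries. Per the submitters' processing notes, bcl2fastq, STAR 2.6.0a, HTSeq and mm10 were used, with no role stated. The annotation, the strand setting and filters are not given in the sources used here, so reads of Meg3 and its antisense neighbour Gm26906, which share 1228 exon bases, cannot be told apart; Gm26906 had 0 counts. Symbols and positions came from GENCODE M21, which held 31011 of the IDs.

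Tests used edgeR 4.0.16 (R 4.3.3) on the counts of all 21 libraries: TMM scaling, filterByExpr, 1 coefficient per group, 14 residual degrees of freedom, two-sided quasi-likelihood tests, Benjamini-Hochberg adjustment over all 10643 genes within each test and a threshold of 0.05. Every adjusted p without another tool named is from this fit. Standard errors are the absolute log2 fold change over the square root of F. CPM are counts over TMM-scaled totals; log2 CPM used a prior count of 2. Where no count was seen, 3 counts set the upper limit, and such limits and intervals cover counting error only. The steps were tested on simulated data. The joint tests, 15 contrasts, averages and interactions were each run under DESeq2 1.42.0, DESeq2 size factors, no filter, the replicate number as a block, only the groups compared, omission of Gm42418 and mitochondrial genes, of the 2 libraries that stand apart and of each library in turn; omission of the libraries labelled LIF HP and 2i+LIF LP was added after seeing the data.

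Same-numbered libraries deviated together (r of 0.397, 0.345 and 0.179) only for 2i+LIF LP and PO, 1 of 15 contrasts; elsewhere they share only a number. All members were named, other genes of the domain with at least 10 counts, from each list at most 4 genes with the smallest p plus Zfp57, Trim28, Dppa3 and Dnmt3a, and the 3 genes most like each member. The members and lists were chosen with earlier results of these data known.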

Additional observations from a re-analysis of the deposited data

How the results depend on the processing

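No called contrast of Mirg or Dio3 reversed its direction in the alternatives run; directions of contrasts that were not called were not tabulated. Of Meg3, Mirg and Dio3, 2 passed the joint test of the cultured groups; the count was 1 with the replicate block, 1 with only the groups compared, 3 without the filter on low counts, and 0 to 2 when libraries were left out in turn. Over all 7 groups 2 passed, 3 with the replicate block, without the filter or without the 2 libraries that stand apart, and 1 to 2 when libraries were left out in turn. Calls in the 9 contrasts within the cultured groups numbered 1, against 5 without the filter on low counts, 4 with only the groups compared, and 0 to 1 when libraries were left out. Against PO there were 4 calls, 8 without the filter, 8 without the 2 libraries that stand apart, and 3 to 7 when libraries were left out. The counts for HP against LP (0), cultured groups against PO (1) and the interactions (0) were the same in every alternative run. With the replicate block Meg3 passed the test over all 7 groups (adjusted p = 0.0498 in edgeR), as it did without the 2 libraries that stand apart (0.0485), and Dio3 in 2i+LIF HP passed against PO (adjusted p = 0.0409). The causes were not tested. A fit of only the groups compared is the same as the reported one for the test over all 7 groups and for cultured groups against PO. Omission of both groups whose Dusp6 goes against the label leaves no counterpart for results that need them. Depth limits Dlk1 and Rtl1 most, and Dio3 in CH+LIF LP and LIF LP rests on 3 and 2 counts.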

Other observations

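The amount of Mirg relative to Meg3 is described here as a pattern chosen after the values had been seen, so no test is given. In 2i+LIF, libraries held 2.27, 3.8 and 2.4 Mirg counts per 100 Meg3 counts at LP and 3.2, 3.49 and 2.21 at HP. In the 12 cultured libraries of CH+LIF and LIF the ratio ran from 3.33 to 9.84. The mean difference was -1.1 on the log2 scale, -1.06 at LP and -1.15 at HP, and at HP the ranges overlapped. The PO libraries, also in 2i+LIF but of another sequencing run, held 7.96, 5.17 and 11.9, within or above the range of CH+LIF and LIF. At LP, 2 of the 3 libraries labelled 2i+LIF had high Dusp6, and these had the ratios 3.8 and 2.4. All 3 libraries labelled LIF HP had low Dusp6, at most 1.23 CPM, and their ratios of 6.82, 9.84 and 6.52 are counted here with LIF by label.

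In LIF HP replicate 2, where Meg3 was lowest, the ratio was 9.84, with 6 Mirg and 61 Meg3 counts, while those of the other LIF HP libraries were 6.82 and 6.52.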
